A study of Mus musculus with 4 samples.

Results

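The Notch pathway genes described here are 10 genes of the deposited expression table, out of 23970 gene symbols in all: the ligands Jag1, Jag2 and Dll1, the fringe enzymes Lfng and Rfng, the receptors Notch1, Notch2 and Notch3, and the target genes Hes1 and Hey1. They were chosen by name, with earlier results of these data known. Each matched 1 row of the table, and 9 of the 10 passed the filter on low values. The RNA came from cultured epidermal keratinocytes of newborn mice, with 2 libraries of Ovol2-deficient cells and 2 of control cells. Ovol2 is a zinc-finger transcription factor of epithelia. All 4 cultures were at passage 0, had been grown in a low-calcium medium on a feeder layer of growth-arrested J2-3T3 fibroblasts and had received no other treatment, and the feeder cells were taken off before RNA extraction. The sample titles give the deficient libraries the code SSKO. The Ovol2 allele, the way it was deleted, the strain and the number of animals behind each library are not given in the sources used here. Nothing in the labels says that libraries came from separate animals, so p-values measure the spread between these libraries, which may be technical.

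Notch signalling passes between touching cells. A ligand of the Jagged or Delta-like family on a sending cell binds a Notch receptor, the receptor is cleaved, and its intracellular part moves to the nucleus, where it joins the DNA-binding protein RBPJ and switches on genes such as Hes1, Hey1 and Nrarp. Fringe enzymes add a sugar to the receptor's extracellular part and so change which ligands it answers to. In mouse epidermis Notch signalling is known for driving basal keratinocytes towards suprabasal differentiation, and basal cells are known to express Dll1 and Jag2.

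Expression is in FPKM, fragments counted for a gene and corrected for transcript length and for library size. Genes with a mean of at least 1 FPKM (11350) were tested with limma on log2(FPKM + 1), with a threshold of 0.05 on the Benjamini-Hochberg adjusted p over all of them. Fold changes are on that scale, which understates changes of low genes. Total counts per library are not known here. Mean normalized values in the authors' deposited table summed to 13338426 over all genes. Ovol2 itself stood at 1.45 and 0.941 FPKM in the deficient libraries, against 2.68 and 2.14 FPKM in the controls, with no overlap, but the log2 fold change of -0.64 (SE 0.18) did not pass in limma (adjusted p = 0.129). The authors' deposited table likewise gave Ovol2 an adjusted p of 0.441. All 10 keratinocyte markers examined were present in every library, with Krt5 at 2484 and 2269 FPKM in the deficient libraries against 2960 and 2762 FPKM in the controls.

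In Ovol2-deficient keratinocytes the ligands Jag2 and Dll1 and the fringe enzyme Lfng fell to less than 50% of their control level, while Rfng, Notch1 and Notch2 differed little. Of the 9 tested members 3 fell, none rose and 6 did not pass. An unadjusted p under 0.05 was found in limma for 4 of the 9. The share of all tested genes with such a value is not given here, so that count has no background. Over all tested genes limma called 1.35%, with 0.511% lower and 0.837% higher. Since the members were chosen with earlier results of these data known, setting them beside these shares is not a test of the list. The median log2 fold change was 0.01 over the 9 members and -0.0014 over all tested genes. Among the 11350 log2 fold changes in limma, Lfng was number 8 from the lowest, Jag2 number 9 and Dll1 number 12. The authors' deposited table called the same 3 members lower and also Notch3 higher, of 9 members with an adjusted p, where 4.43% of all genes were called, 2.10% lower and 2.33% higher. The groups did not overlap for 5 of the 9 members, against 48.1% of all tested genes. They were lower in the deficient libraries for 3 members, against 24.0% of genes, and higher for 2, against 24.1%. In bulk RNA, fewer cells of a type and less RNA per cell cannot be told apart.

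**Figure D1:**
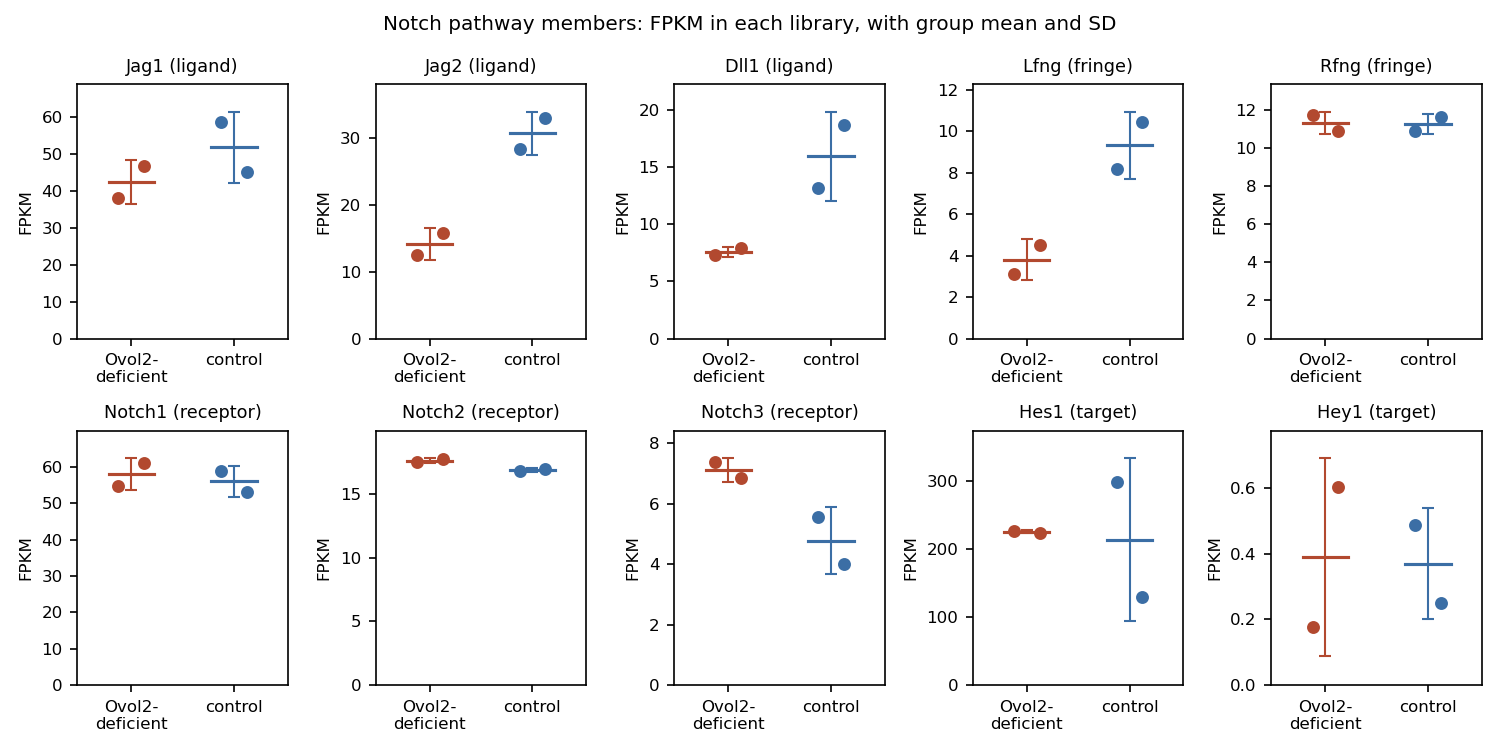
FPKM of the 10 members in each library (points), with the group mean (short line) and SD (bar), Ovol2-deficient left of control; each panel has its own vertical axis, starting at 0. The groups are apart for Jag2, Dll1 and Lfng, which are lower in the deficient libraries, and the 2 control values of Hes1, 299 and 129, lie on either side of the deficient ones.

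Among the ligands, Jag2 (ENSMUSG00000002799.6, mm10, chromosome 12, 112907819 to 112929776, minus strand) had 12.4 and 15.8 FPKM in the deficient libraries, against 28.4 and 33.0 FPKM in the controls. The means were 14.1 ± 2.42 and 30.7 ± 3.24 FPKM (SD, n = 2 each), a level 46.1% of that in controls. The groups did not overlap, and Jag2 fell by 1.07 on the log2 scale (SE 0.14, limma adjusted p = 0.0353). With a mean normalized value of 1395 in the authors' deposited table, Jag2 had there the lowest log2 fold change of all 17636 rows that have one (-0.97, SE 0.13, adjusted p = 3.37e-09). Log2 fold changes in that table appear to be drawn towards 0 for variable genes, which can affect ranks by them, here and below.

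Dll1 (ENSMUSG00000014773.13, chromosome 17, 15367354 to 15376872, minus strand), the Delta-like ligand of basal keratinocytes, had 7.26 and 7.88 FPKM in the deficient libraries, against 13.2 and 18.7 FPKM in the controls. The deficient libraries were close to each other, and both lay below the controls. The means were 7.57 ± 0.434 and 15.9 ± 3.89 FPKM (SD, n = 2 each), and Dll1 fell by 0.97 on the log2 scale (SE 0.16, limma adjusted p = 0.0470). The authors' deposited table ranked its log2 fold change of -0.90 as number 4 from the lowest (adjusted p = 1.81e-06). An opposite-strand RNA gene, A930024N18Rik, shares 20.5% of the exonic bases of Dll1, and the strand setting of the libraries is not given, so reads of the pair cannot be told apart there. The same holds for smaller opposite-strand overlaps of Notch1 (7.504% with 0610009E02Rik and 2.91% with Gm13568) and Notch3 (6.03% with Gm17276), for a same-strand overlap of Notch2 (5.02% with Gm42820), and for Ovol2 (17.0% with 1700108N11Rik on the opposite strand).

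Jag1 (ENSMUSG00000027276.7, chromosome 2, 137081456 to 137116644, minus strand), the most highly expressed of these ligands, had 38.2 and 46.7 FPKM in the deficient libraries, against 58.6 and 45.0 FPKM in the controls. The groups overlapped, and the log2 fold change of -0.28 (95% interval -0.63 to 0.08) did not pass in limma (adjusted p = 0.408). The authors' deposited table gave -0.24 with an adjusted p of 0.479. The interval leaves room for a fall of Jag1. It overlaps the 95% interval of Dll1 (-1.34 to -0.59) but not that of Jag2 (-1.39 to -0.75). Differences between these genes were not tested.

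Of the fringe enzymes, Lfng (ENSMUSG00000029570.5, chromosome 5, 140607320 to 140615545, plus strand), a glycosyltransferase that favours Delta-like over Jagged signalling to Notch1, had 3.10 and 4.51 FPKM in the deficient libraries, against 8.19 and 10.5 FPKM in the controls. The groups were apart, with means of 3.80 ± 1.001 and 9.33 ± 1.61 FPKM (SD, n = 2 each). Lfng fell by 1.11 on the log2 scale (SE 0.18, limma adjusted p = 0.0434), to 40.8% of its control level. The authors' deposited table ranked its log2 fold change of -0.88 as number 6 from the lowest (adjusted p = 0.000248), at a mean normalized value of 201. Rfng (ENSMUSG00000025158.7, chromosome 11, 120780746 to 120784207, minus strand), which adds the same sugar, had 11.7 and 10.9 FPKM in the deficient libraries, against 10.9 and 11.6 FPKM in the controls. The log2 fold change of Rfng was 0.01 (95% interval -0.23 to 0.25, limma adjusted p = 0.984). Mfng, the remaining fringe gene, was listed at 0 in every library.

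The calls of Jag2, Dll1 and Lfng were lost with either deficient library left out, where within-group spread comes from the 2 controls alone. Their log2 fold changes were then -0.91, -0.91 and -0.90 without deficient library 1, and -1.24, -1.02 and -1.33 without library 2. Without deficient library 1 no member was called lower (adjusted p = 0.210 for Jag2, 0.243 for Dll1 and 0.220 for Lfng), nor without library 2 (0.0752, 0.226 and 0.118), where 0% and 0.00881% of all genes were called lower; without control 2 Lfng was lost (adjusted p = 0.0624) and 0.370% of genes were lower. The 3 calls were also lost with no filter on low values, under quantile normalization and without limma's variance trend, which called 0% of all genes lower, and under upper quartile scaling, which called 0.0881% lower.

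**Figure D2:**
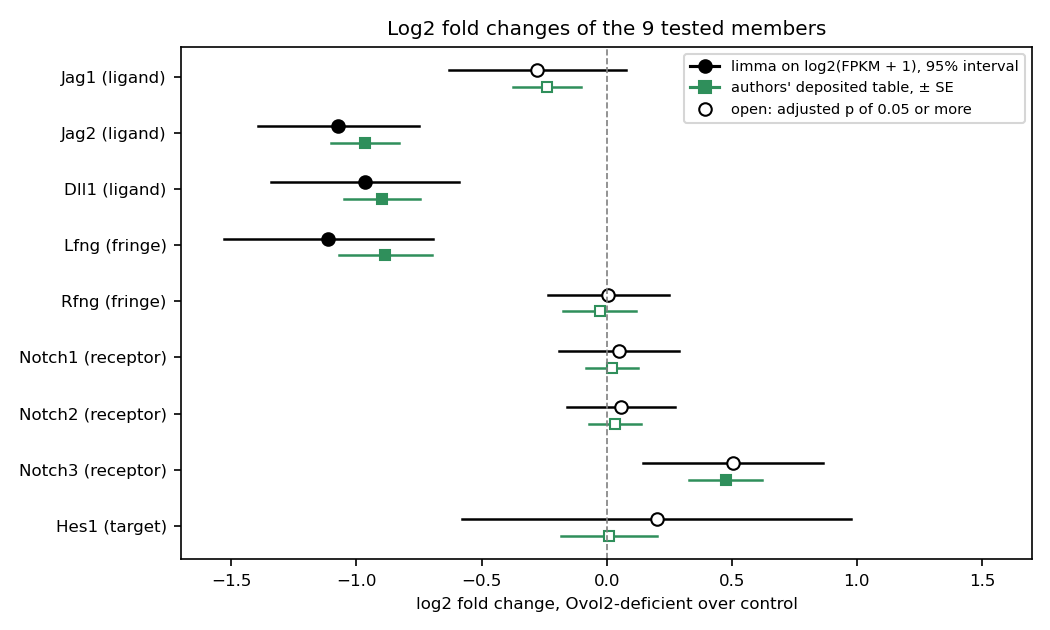
Log2 fold change of Ovol2-deficient over control for the 9 tested members: circles are limma estimates with 95% intervals, squares are the values of the authors' deposited table with their SE, and open symbols have an adjusted p of 0.05 or more. Jag2, Dll1 and Lfng lie near -1 in limma, and Notch3 at 0.50 is filled in the authors' table alone.

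Promoter windows are shown for the 3 genes that fell and for Jag1, the ligand that did not pass, so that the sequences can be compared; they are RefSeq windows of 300 bases on GRCm38.p6, from 250 bases before the start of transcription to 50 after it, and 8 of the 10 members had one. They are written 5′ to 3′ along the gene's own strand, and capitals mark matches to 3 motifs searched on both strands, which share no overlapping match here. The motifs were GTGGGAA, the core bound by RBPJ, CCGTTA, bound by mouse Ovol proteins, and CAGGTG, an E-box bound by Snai and Zeb factors.
Jag2, chr12:112929446-112929745, minus strand: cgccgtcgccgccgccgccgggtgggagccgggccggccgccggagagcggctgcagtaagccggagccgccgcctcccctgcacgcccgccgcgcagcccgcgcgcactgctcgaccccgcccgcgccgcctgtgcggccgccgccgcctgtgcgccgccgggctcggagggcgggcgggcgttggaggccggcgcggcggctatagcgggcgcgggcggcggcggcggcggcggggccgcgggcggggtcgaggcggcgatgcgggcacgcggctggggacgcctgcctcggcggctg
Dll1, chr17:15376883-15377182, minus strand, upstream start: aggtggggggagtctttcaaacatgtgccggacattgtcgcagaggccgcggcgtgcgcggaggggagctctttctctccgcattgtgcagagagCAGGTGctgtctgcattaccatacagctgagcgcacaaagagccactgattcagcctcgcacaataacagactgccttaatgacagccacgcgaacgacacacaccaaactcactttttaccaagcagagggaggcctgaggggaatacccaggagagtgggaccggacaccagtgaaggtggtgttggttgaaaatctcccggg
Dll1, chr17:15375774-15376073, minus strand, downstream start: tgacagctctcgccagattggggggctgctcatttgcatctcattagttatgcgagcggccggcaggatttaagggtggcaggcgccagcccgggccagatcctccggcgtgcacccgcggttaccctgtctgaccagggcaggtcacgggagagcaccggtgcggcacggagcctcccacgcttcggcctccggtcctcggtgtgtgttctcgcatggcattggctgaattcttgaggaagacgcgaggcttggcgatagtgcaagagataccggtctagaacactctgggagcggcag
Lfng, chr5:140607091-140607390, plus strand: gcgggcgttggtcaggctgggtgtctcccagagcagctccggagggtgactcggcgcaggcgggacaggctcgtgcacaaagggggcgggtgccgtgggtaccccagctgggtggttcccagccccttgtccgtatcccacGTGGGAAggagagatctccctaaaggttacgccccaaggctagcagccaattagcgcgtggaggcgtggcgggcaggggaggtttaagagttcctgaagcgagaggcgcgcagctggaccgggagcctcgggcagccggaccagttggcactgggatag
Jag1, chr2:137116471-137116770, minus strand: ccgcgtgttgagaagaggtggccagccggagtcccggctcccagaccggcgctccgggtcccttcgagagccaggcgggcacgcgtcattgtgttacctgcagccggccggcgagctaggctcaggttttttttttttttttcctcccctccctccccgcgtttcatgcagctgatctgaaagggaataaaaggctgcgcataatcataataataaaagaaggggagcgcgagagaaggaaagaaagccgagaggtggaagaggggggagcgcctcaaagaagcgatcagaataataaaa

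In these windows GTGGGAA occurred in Lfng, beginning at position -109 from the start, and in none of the other 7 members with a window. The same motif is in 6.38% of the 32851 promoter windows of the table. CAGGTG occurred in the upstream window of Dll1, at position -155, and its reverse complement in that of Rfng, at position -126, against 20.2% of all windows. CCGTTA occurred in none of the 9 member windows, against 2.76% of all. The windows also differed in base composition, with 86.0% G and C in Jag2, 66.7% in Lfng, 56.3% and 62.7% in the 2 Dll1 windows, and 55.7% in Jag1, beside a median of 52.7% over all windows. These matches describe letters in the windows and were not tested against the expression values.

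The make-up of each family within a library does not change when a library is multiplied by 1 factor, though it can under quantile normalization. Summed over Jag1, Jag2, Dll1, Dll3 and Dll4, ligand FPKM was 57.9 and 70.5 in the deficient libraries, against 100.3 and 96.7 in the controls. Jag1 made up 66.0% and 66.3% of that sum in the deficient libraries, against 58.5% and 46.6% in the controls, and Jag2 made up 21.5% and 22.5%, against 28.3% and 34.1%. The ratio of Jag1 to Jag2 was 3.07 and 2.95 in the deficient libraries, against 2.07 and 1.37 in the controls, so the groups did not overlap. Lfng made up 20.9% and 29.3% of fringe FPKM in the deficient libraries, against 42.9% and 47.4% in the controls, which also did not overlap. With 2 libraries a group, the exact two-sided permutation test of such a share cannot go below p = 0.333.

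**Figure D3:**
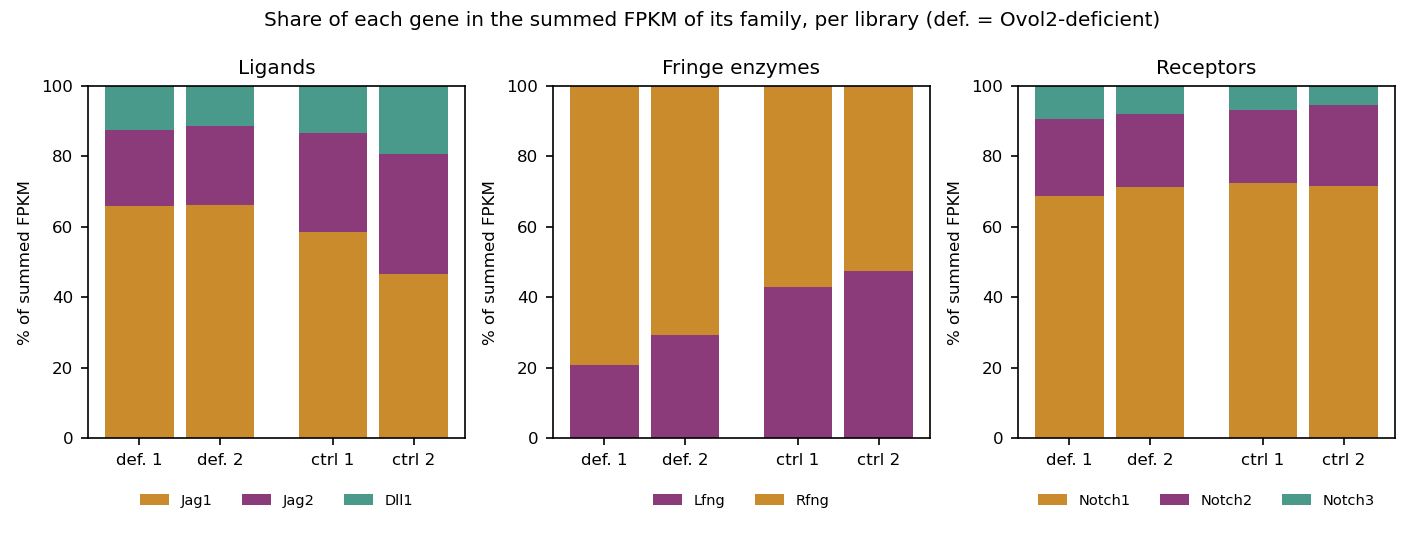
Share (%) of each gene in the summed FPKM of the ligands, the fringe enzymes and the receptors, with a stacked bar for each library, Ovol2-deficient libraries left of controls. Jag1 and Rfng take a larger share in the deficient libraries, while Notch1 stays between 68.7% and 72.5% of receptor FPKM in all 4.

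Among the receptors, Notch1 (ENSMUSG00000026923.15, chromosome 2, 26457903 to 26516663, minus strand), the main Notch receptor of keratinocytes, had 54.9 and 61.2 FPKM in the deficient libraries, against 59.0 and 53.1 FPKM in the controls. The groups overlapped, with a log2 fold change of 0.05 (95% interval -0.19 to 0.29, limma adjusted p = 0.864). Notch2 (ENSMUSG00000027878.11, chromosome 3, 98013527 to 98150361, plus strand), a related receptor, had 17.5 and 17.8 FPKM in the deficient libraries, against 16.8 and 17.0 FPKM in the controls. Although its groups did not overlap, the log2 fold change was 0.06 (95% interval -0.16 to 0.27, limma adjusted p = 0.813).

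Notch3 (ENSMUSG00000038146.8, chromosome 17, 32120820 to 32166852, minus strand), the receptor with the lowest level of these, had 7.40 and 6.85 FPKM in the deficient libraries, against 5.56 and 3.99 FPKM in the controls. Both deficient values lay above both controls, with means of 7.12 ± 0.390 and 4.78 ± 1.11 FPKM (SD, n = 2 each). The log2 fold change was 0.50 (SE 0.15) and did not pass in limma (adjusted p = 0.151). The authors' deposited table gave 0.48 (SE 0.15) with an adjusted p of 0.0313. In limma the adjusted p of Notch3 was 0.0400 without control 1, with a log2 fold change of 0.70 (1.29% of all genes were then lower and 2.21% higher), and the log2 fold changes with any 1 library left out were 0.31 to 0.70. Notch3 is also known from fibroblasts and from the mural cells of vessels. Of the 13 tested fibroblast markers 3 were called higher in limma, against 0.837% of all tested genes. All 13 had both deficient values above both controls, against 24.1% of all tested genes. Their summed level, with 3 untested markers added, was 639.7 and 651.7 FPKM in the deficient libraries, against 477 and 449 FPKM in the controls. The 6 mural and muscle markers summed to 44.6 and 52.0 FPKM in the deficient libraries, against 43.4 and 39.8 FPKM in the controls. Acta2 made up most of that sum, with 42.7 and 50.3 FPKM in the deficient libraries, against 41.7 and 39.1 FPKM in the controls (limma adjusted p = 0.420). Des, at 1.29 and 1.104 FPKM in the deficient libraries against 0.705 and 0.348 FPKM in the controls, was also higher without overlap but below the filter. The defining mural markers Rgs5 and Myh11 reached no more than 0.107 FPKM in any library. The part of the fibroblast and mural markers in the Notch3 difference was not tested.

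The target Hes1 (ENSMUSG00000022528.8, chromosome 16, 30064384 to 30067796, plus strand), a transcriptional repressor switched on by Notch, had 227 and 224 FPKM in the deficient libraries, against 299 and 129 FPKM in the controls. The deficient libraries agreed closely and lay between the 2 controls, which differed 2.31-fold. The log2 fold change was 0.20 (95% interval -0.58 to 0.98, limma adjusted p = 0.825). It was 0.80 without control 1 and -0.40 without control 2, so that its direction depended on which control was used. Hey1 (ENSMUSG00000040289.8, chromosome 3, 8663359 to 8667256, minus strand), a related repressor, was below the filter and was not tested, at 0.178 and 0.604 FPKM in the deficient libraries, against 0.490 and 0.250 FPKM in the controls. Its mean normalized value in the authors' deposited table was 9.86, with a log2 fold change of 0.01 (SE 0.13) and no adjusted p.

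Nrarp, a target that feeds back on the Notch complex, showed the same order of libraries as Hes1. It had 32.8 and 30.2 FPKM in the deficient libraries, against 39.3 and 11.7 FPKM in the controls (log2 fold change 0.52, limma adjusted p = 0.628). Without control 1 its log2 fold change was 1.35, and without control 2 it was -0.31. The differentiation genes Krt1, Krt10 and Ivl, suprabasal keratins and an envelope precursor, were also lowest in control 2. Ivl, for example, had 36.9 and 26.9 FPKM in the deficient libraries, against 26.0 and 15.9 FPKM in the controls. The summed level of 9 suprabasal markers was 1314 and 954.9 FPKM in the deficient libraries, against 1229.95 and 747 FPKM in the controls, mostly from Sbsn and Krtdap. Over the 8 tested the median log2 fold change was 0.85, with 0 called in limma. Both deficient values lay above both controls for 3 of the 8 and below them for 0, against 24.1% and 24.0% of all tested genes. The part of the differentiation state in the Hes1 and Nrarp values was not tested.

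Of the 5 reported keratinocyte genes linked to Notch in the mouse or human literature, none passed in limma (adjusted p 0.242 to 0.419), and the authors' deposited table called none. In limma 1 of the 5 had an unadjusted p under 0.05, again without a share of all tested genes beside it. Cdkn1a, a cell cycle inhibitor induced by Notch1, had 343 and 300.9 FPKM in the deficient libraries, against 294 and 266 FPKM in the controls, a log2 fold change of 0.20. Trp63, the basal regulator that Notch represses, had 64.2 and 60.6 FPKM in the deficient libraries, against 76.1 and 68.1 FPKM in the controls. The remaining 3 reported genes, Krt1, Krt10 and Ivl, had log2 fold changes of 1.17, 1.49 and 0.61. Without control 1 these 3 log2 fold changes were 2.14, 2.65 and 0.95, and without control 2 they were 0.20, 0.33 and 0.27.

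**Figure D4:**
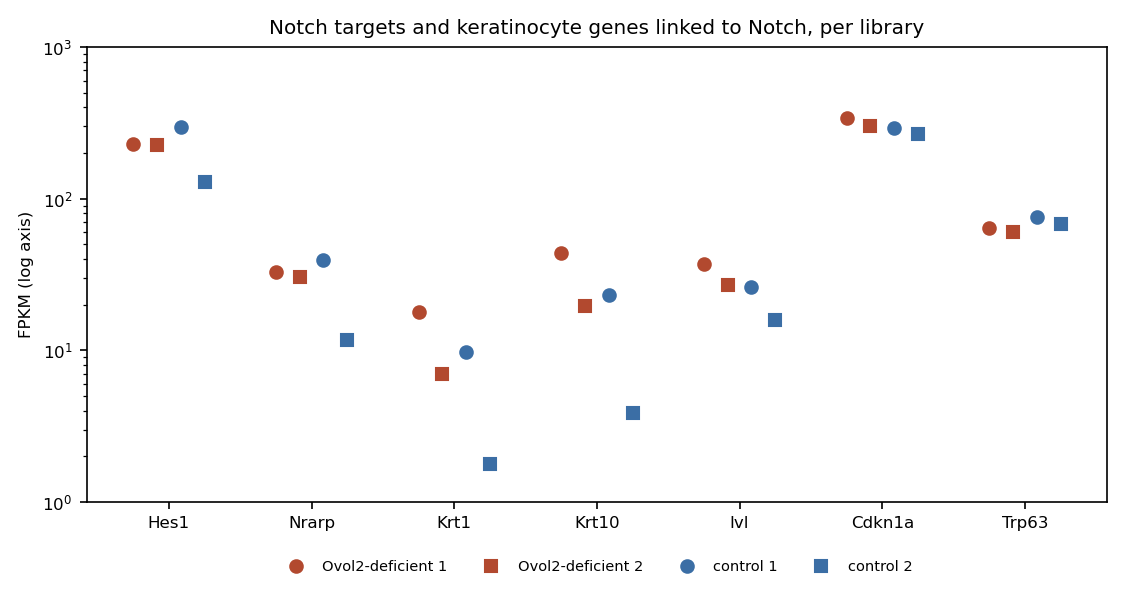
FPKM (log axis) of the targets Hes1 and Nrarp and of 5 keratinocyte genes linked to Notch, in each Ovol2-deficient library (red) and each control library (blue); circles are library 1 and squares library 2. Control 2 has the lowest value of Hes1, Nrarp, Krt1, Krt10 and Ivl, with Nrarp at 11.7 against 30.2 to 39.3 in the other libraries.

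The other genes of the pathway showed no calls. Of 54 listed, 40 were tested and none passed in limma, while the authors' deposited table called none of the 42 with an adjusted p. An unadjusted p under 0.05 was found in limma for 7 of the 40, again without a share of all tested genes beside it. The median log2 fold change of the 40 was -0.01. Both deficient values were below both controls for 11 of the 40 and above them for 10, shares close to those of all tested genes. The 14 genes below the filter reached no more than 0.923 FPKM in any library, and 3 of them, Dll3, Mfng and Hes2, were listed at 0 throughout, although Dll3 had a mean normalized value of 1.55 in the authors' deposited table.

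The largest fall on this wider list was that of Dlk2, a Delta-like protein without the domain that binds Notch in classical ligands. It had 2.45 and 4.06 FPKM in the deficient libraries, against 5.86 and 7.99 FPKM in the controls, with no overlap. Its log2 fold change was -0.91 (SE 0.21) and did not pass in limma (adjusted p = 0.0850). The authors' deposited table gave an adjusted p of 0.0513. With 1 library left out the log2 fold changes of Dlk2 in limma were -1.19 to -0.63. Dlk1, a related protein that likewise lacks that domain, was higher without overlap, at 4.64 and 3.93 FPKM in the deficient libraries against 2.52 and 2.94 FPKM in the controls, but did not pass (log2 fold change 0.50, limma adjusted p = 0.125). Dlk1 and Rbpj were picked out after their values were seen. Rbpj, the DNA-binding partner of Notch, had 19.2 and 18.6 FPKM in the deficient libraries, against 15.1 and 15.4 FPKM in the controls (log2 fold change 0.29, limma adjusted p = 0.168).

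In each remaining role the most highly expressed gene did not pass. For receptor cleavage this was Psenen, a subunit of gamma-secretase, with 78.4 and 64.1 FPKM in the deficient libraries, against 74.7 and 75.6 FPKM in the controls. For receptor glycosylation it was Poglut1, an O-glucosyltransferase, with 28.0 and 25.5 FPKM in the deficient libraries, against 28.4 and 26.7 FPKM in the controls. Mib1, the ubiquitin ligase that activates ligands, had 17.3 and 18.6 FPKM in the deficient libraries, against 18.3 and 19.5 FPKM in the controls. These 3 pairs of groups overlapped.
In the nucleus, the co-activator Snw1 had 45.1 and 44.5 FPKM in the deficient libraries, against 45.9 and 42.8 FPKM in the controls, and the co-repressor subunit Hdac1 had 61.1 FPKM in both deficient libraries, against 72.9 and 65.2 FPKM in the controls. Numb, an inhibitor that promotes receptor turnover, had 24.0 and 22.8 FPKM in the deficient libraries, against 21.8 and 20.6 FPKM in the controls. The adjusted p values of these 6 genes in limma were 0.417 to 0.957. Notch4, the remaining receptor, stayed at or below 0.107 FPKM.

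**Figure D5:**
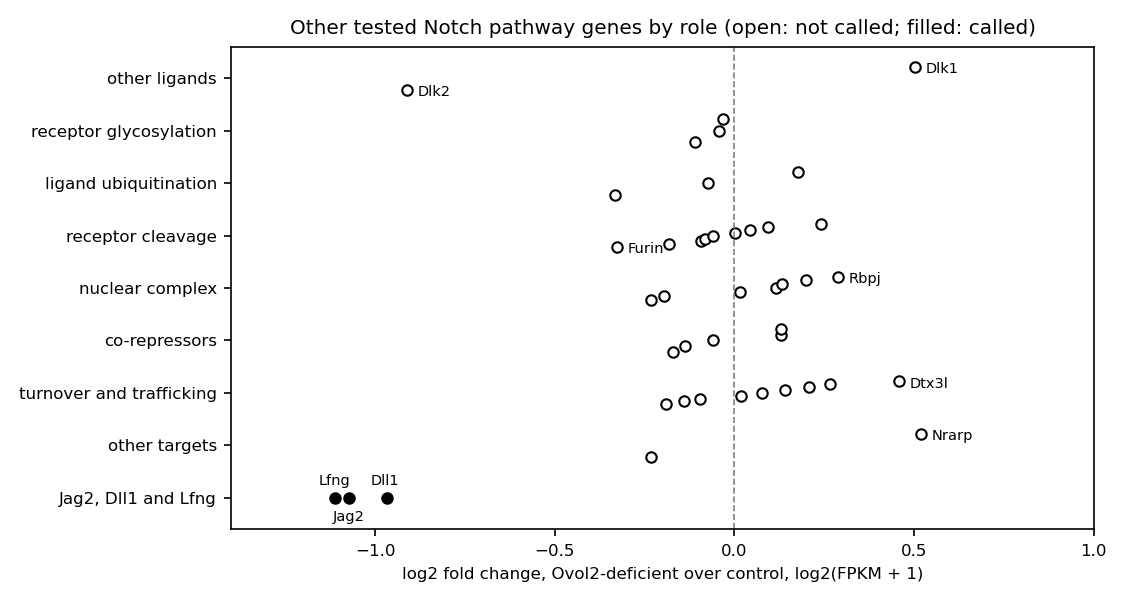
Log2 fold change of Ovol2-deficient over control, on the log2(FPKM + 1) scale, for the 40 tested genes of the wider Notch pathway by role (open circles, none called in limma), with Jag2, Dll1 and Lfng (filled, called) in the bottom row. Dlk2 at -0.91 is the lowest open circle, and the others lie between -0.33 and 0.52.

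In order of level, the control libraries ran from Hes1 (mean 214 FPKM) through Notch1 (56.1), Jag1 (51.8), Jag2 (30.7), Notch2 (16.9), Dll1 (15.9), Rfng (11.3), Lfng (9.33) and Notch3 (4.78) to Hey1 (0.370). Notch1 and Jag1 overlapped there, as did Notch2 and Dll1. In the deficient libraries Notch2 (17.7 FPKM) stood above Jag2 (14.1 FPKM) without overlap, Rfng (11.3 FPKM) stood above Dll1 (7.57 FPKM), Dll1 overlapped with Notch3 (7.12 FPKM), and Lfng (3.80 FPKM) lay below Notch3.

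Patterns over the 4 libraries were compared by the Euclidean distance between log2(FPKM + 1) values centred on each gene's mean. Among 11349 other tested genes, the one closest to Jag2 was Lfng, and the one closest to Lfng was Jag2 (distance 0.113, with a median distance from Jag2 of 1.13). The next closest to Jag2 were Ctnnal1 and Agrn (0.183 and 0.244), and the next closest to Lfng were Dlk2 and Agrn (0.225 and 0.246). Dll1 was number 6 in the order from Jag2 (0.267), and its own closest genes were Igfbp3, Clhc1 and Fbxo5 (0.224 to 0.236). Jag1 was closest to Hoxa7, Bcat2 and Bex2 (0.0332 to 0.0818), and Jag2 was number 10735 in the order from Jag1. With 4 libraries that share 1 contrast these distances describe the values and were not tested.

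Markers of other cell types differed between the groups beside these results. The keratinocyte list summed to 6578 and 5676 FPKM in the deficient libraries, against 7291 and 6872 FPKM in the controls, with 0 of 10 called in limma (6 had both deficient values below both controls, none the reverse). Itga6, a basal integrin of that list, had 83.5 and 88.2 FPKM in the deficient libraries, against 120.4 and 116 FPKM in the controls (limma adjusted p = 0.0581). The authors' deposited table called Itga6, Col17a1 and Cdh1 of that list lower (adjusted p = 0.000391, 0.00336 and 0.0356) and did not call the others. The 8 melanocyte markers summed to 91.4 and 84.9 FPKM in the deficient libraries, against 62.6 and 68.1 FPKM in the controls. In limma 0 of the 6 tested were called, with a median log2 fold change of 0.37. All 6 had both deficient values above both controls, against 24.1% of all tested genes. Of these markers the authors' deposited table called only Dct, which was higher (adjusted p = 0.0331). The 16 fibroblast markers, whose sums are given with Notch3, were the one list here with genes called in limma. Of 13 tested 3 were called, all higher, against 0.837% of all tested genes called higher. The median log2 fold change of the 13 was 0.50. The authors' deposited table called more fibroblast markers than limma, such as Col5a1 (adjusted p = 0.000445), all higher. The next 3 lists overlapped between the groups in their summed level. The 6 endothelial markers summed to 4.75 and 3.51 FPKM in the deficient libraries, against 3.58 and 3.89 FPKM in the controls, nearly all from Pecam1 and Kdr, with Cdh5 listed at 0 in every library. The 7 immune markers summed to 11.8 and 9.53 FPKM in the deficient libraries, against 8.01 and 16.5 FPKM in the controls, mostly from Lyz2, with Cd207 at 0. The 8 hair follicle markers summed to 79.3 and 71.6 FPKM in the deficient libraries, against 96.8 and 64.5 FPKM in the controls, mostly from Sox9, with Shh at 0. The part of these markers in the lower Jag2, Dll1 and Lfng was not tested.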

How the data were processed

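Per the labels' protocols, Trizol RNA from keratinocytes taken before confluence was made into full-length cDNA and tagmented with a Nextera kit, whose strand setting is not stated. By the submitters' processing notes, the software was TopHat and HTSeq and the build mm10, without versions or order; the tool and annotation behind the FPKM are not stated there. FPKM for 24487 rows were deposited. A second deposited table gives, per the file headers, a mean normalized signal, log2 fold changes, their standard errors, a score for each test, p-values and adjusted p-values. Its log2 fold changes run from -0.97 to 1.25. Genes that vary between libraries lie nearer 0 there than in limma, with Krt10 at 0.11 against 1.49 and Krt1 at 0.10 against 1.17. The values thus appear to be shrunken, and ranks by them may reflect precision as well as size.

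Columns named mutant were assigned to the Ovol2-deficient group as a whole, since the titles use another code, and they keep the table's numbers. After 27 rows with date-like names were removed and rows sharing a symbol were summed, 23970 symbols remained. Between 5 and 13 of 11350 tested values were identical between any pair of libraries. The test was limma 3.58.1 (R 4.3.3) on log2(FPKM + 1) for genes with a mean of at least 1 FPKM, with group as the only term, a variance trend and Benjamini-Hochberg adjustment at 0.05. The files held no counts, so the limma branch of the design was used. Data of 11350 genes were simulated with variances drawn from limma's own prior. Changes on the log2(FPKM + 1) scale were placed in 200 genes, all above a stricter filter on level than that of the test. Of genes changed 1.5-fold 38.7% were recovered and of those changed 2-fold 91.7%, with 4.15% of calls false. The noise came from the model that also scored it, so these shares need not hold for the measured data. Means and SDs are of FPKM. Read depth was not given, so no counting interval was computed.

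The members and lists were chosen with earlier results of these data known. Named genes are the members, Ovol2, the called gene or else the highest gene of each role in the wider pathway list, 5 keratinocyte genes linked to Notch (another of that list is not reported here), and the 3 nearest patterns of Jag2, Dll1, Lfng and Jag1; Ovol1, also under that rule, did not pass (log2 fold change 0.43, adjusted p = 0.296). Coordinates are from GENCODE M21, on the build of mm10, and promoter windows are from RefSeq. Lists of endothelial (6 genes, 2 tested), mural (6, 1 tested), immune (7, 3 tested) and hair follicle (8, 3 tested) markers had 0 called genes in limma. The rest of these lists lay below the filter. Alternatives were other pseudocounts, filters, scalings, limma settings, the replicate number as a block, and each library left out.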

Additional observations from a re-analysis of the deposited data

How the results depend on the processing

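The count of 3 members lower fell to 0 with no filter on low values, quantile normalization, upper quartile scaling or limma without its variance trend, and was 0 to 3 with 1 library left out; with a pseudocount of 5 it was 2, without Dll1 (adjusted p = 0.0524). Log2 fold changes under the 10 other alternatives stayed at -1.12 to -0.90 for Jag2, -1.04 to -0.72 for Dll1 and -1.29 to -0.70 for Lfng, and with 1 library left out at -1.24 to -0.91, -1.20 to -0.73 and -1.33 to -0.90, so none reversed in sign. No member was called higher under the 10 other alternatives, where other pathway genes called were 0 to 1. The cause of these changes was not tested. In fits with 1 library left out, the lone library of a group is assumed to vary like the other group. Signs turned with 1 library left out for Rfng (-0.0417 to 0.0556), Notch1 (-0.0269 to 0.13), Hes1 (-0.40 to 0.80), Poglut1 (-0.105 to 0.0216), Psenen (-0.23 to 0.0601), Snw1 (-0.0336 to 0.0649), Nrarp (-0.31 to 1.35) and the untested Hey1 (-0.21 to 0.23), for Rfng under quantile normalization (-0.0076), and for Hey1 with a pseudocount of 0.1 (-0.0388). With the replicate number as a block, the 3 members stayed called, 1 other pathway gene (Dlk2) was called, as were Krt1, Krt10 and Ivl, and limma called 518 genes in all, against 153 without it; same-numbered libraries deviated together at r = 0.22 across genes, but 2 pairs share only a number. All calls were 3 to 518 over the other alternatives and 10 to 397 with 1 library left out. Read depth is not known, so its effect on low genes such as Hey1 was not measured.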
